A study of Mus musculus with 32 samples.

Results

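The synaptotagmins are proteins, most of them set in membranes, that carry a pair of C2 domains and act in the traffic of vesicles. In the frontal cortex (FCtx) of mice given ethanol, 10 genes of the family (Syt1, Syt3, Syt4, Syt5, Syt7, Syt11, Syt12, Syt13, Syt16 and Syt17) were followed through all of their probes on an expression array. These 10 genes had 14 probes among the 25697 probes (18138 gene symbols) of the array. The genes were selected on their log2 differences between ethanol-treated and control mice and on their values by chip in these same arrays, so those differences, over all arrays and by chip, are described here for each gene with no p-value, and no conclusion rests on how many of the genes were called. Co-variation within groups was named with that choice, so the p-values of member pairs are given as descriptions only.

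FCtx RNA of 32 female F1 mice from a cross of C57BL/6J and FVB/NJ was hybridized, 1 mouse per array, to Illumina MouseRef-8 v2.0 chips, which read each probe on many beads and hold 8 arrays each. The 20 ethanol-treated mice could drink 20% ethanol or water in daily sessions of 3 h over 20 days (a 2-bottle choice form of drinking in the dark), whereas the 12 controls were untreated and matched. The labels name 1 direction of the cross, the Methods name reciprocal crosses, and neither gives the age of single mice. Chips 1 and 2 held ethanol-treated mice only, chip 4 held controls only, and chip 3 was split between 4 ethanol-treated mice and 4 controls. Of the 8 positions on a chip, A to H, the odd ones (A, C, E and G) held the ethanol-treated mice of chip 3 and the even ones held its controls. Chip and treatment thus cannot be told apart outside chip 3, and treatment and position cannot be told apart on it. Mice at even positions carried higher numbers than mice at odd positions on every chip.

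The median signal per array ranged from 166 to 203 in ethanol-treated mice and from 146 to 187 in controls and, with a detection p-value below 0.01 counted as detected, arrays detected from 9480 to 11544 probes. The array of control mouse C66 was the lowest on both measures. Signals were variance-stabilized and quantile-normalized to a log2 scale, and limma was run on the 10187 probes (7926 genes) detected on at least 24 arrays. Among markers of cortical excitatory neurons, 4 passed this filter. The mean level of these 4 tested excitatory neuron markers lay between 11.04 and 11.38 in ethanol-treated mice and between 11.17 and 11.66 in controls. The median log2 difference between treatments was -0.17 for this list, -0.04 for 6 interneuron markers and -0.03 for 2 pan-neuronal markers. Other marker lists are given further below. In whole tissue, fewer cells of a type and less RNA per cell cannot be told apart.

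Many synaptotagmins sit in the membranes of synaptic vesicles or dense-core vesicles. Several bind calcium through their C2 domains and pull the vesicle towards the SNARE proteins that fuse it with the plasma membrane. Syt1 is the calcium sensor of fast transmitter release. Syt4 and Syt11 form a separate branch in which a calcium-binding residue of the first C2 domain is replaced, and Syt11 has been linked to the retrieval of vesicle membrane. Syt12, Syt13 and Syt16 also lack calcium-binding residues.

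Syt11 had 2 probes, shown here because their values carry most of the results. Capitals are not used, as no base within them is singled out. Of the first probe, which lies near the start of the transcript, the first 30 of 50 bases are printed.

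Syt11 first probe: ctaagaggaaagcgcagctagcaaccaggg
Syt11 second probe: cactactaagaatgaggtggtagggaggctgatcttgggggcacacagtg

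The array annotation places the first probe at chr3:88576368-88576417 and the second at chr3:88551710-88551759, both on the minus strand, in a genome build that is not given in the sources used here. They lie 24.7 kb apart on the chromosome and 1326 bases apart in the transcript, at transcript positions 104 to 153 and 1430 to 1479. The manufacturer marks the first as specific to an isoform and the second as common to all isoforms of the gene. No probe of a synaptotagmin gene shared a run of over 8 bases with a probe of another, among the 23 probes of 17 Syt genes on the array.

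Of the 10 genes, 7 had probes detected on enough arrays to be tested, with 8 probes: Syt1, Syt4, Syt5, Syt11 (both probes), Syt12 (1 of its 2 probes), Syt13 and Syt16. All 8 of these probes were detected in all 32 mice. Syt3 was detected in 14 mice (8 ethanol-treated and 6 controls, with signals from 126 to 234) and Syt17 in 13 mice (10 and 3, with signals from 136 to 263). Both therefore lay at the edge of the background. Syt7, the sensor of slow and asynchronous release, has 3 probes, none of which was detected in any mouse, and the second Syt12 probe was detected in 2. A probe that was not detected does not show that its gene is not expressed, as the 2 Syt12 probes gave different results. For Syt3, Syt7 and Syt17, these arrays therefore give neither a level of expression nor a difference between groups.

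Syt11 was the synaptotagmin with the largest difference between the groups. With the first probe, the 20 ethanol-treated mice ranged from 9.23 to 10.38 on the log2 scale with a median of 9.82, and the 12 controls from 8.41 to 9.73 with a median of 9.28. The groups overlapped, but 12 of the 20 ethanol-treated mice lay above the highest control and 5 of the 12 controls lay below the lowest ethanol-treated mouse. The means were 9.85 ± 0.34 (SD, n = 20) and 9.15 ± 0.41 (SD, n = 12), a log2 difference of 0.70 (standard error 0.12), or 1.63-fold. No tested gene on the array had a larger rise.

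The second Syt11 probe moved in the same direction over a smaller range. It ran from 8.69 to 9.64 (median 9.32) in ethanol-treated mice and from 8.40 to 9.27 (median 8.99) in controls, a log2 difference of 0.34 (standard error 0.07). Here 11 of 20 ethanol-treated mice lay above the highest control and 2 of 12 controls below the lowest ethanol-treated mouse, and 42 tested genes had a larger rise.

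**Figure D1:**
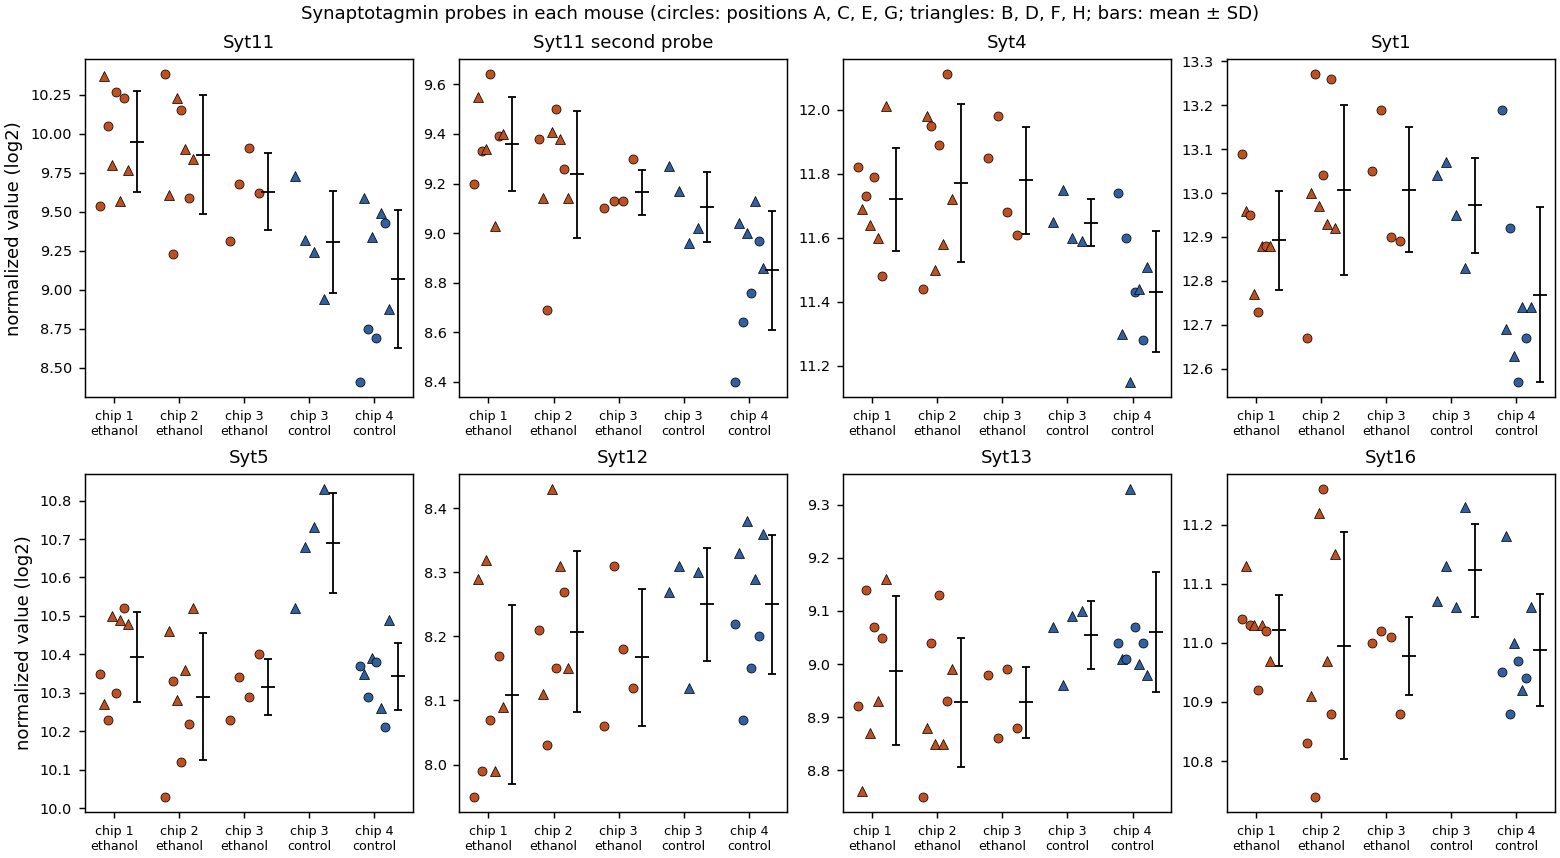
Normalized log2 value of the 8 tested synaptotagmin probes in each of the 32 mice, by chip and treatment. Circles are odd and triangles even positions, and bars show the mean ± SD of each group. Syt11 values of the 8 controls of chip 4 lie between 8.41 and 9.59, whereas those of the 16 ethanol-treated mice of chips 1 and 2 lie between 9.23 and 10.38, and Syt5 has its highest mean in the 4 controls of chip 3.

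Syt4, a vesicle protein of the same branch as Syt11 that is induced by neuronal activity, was also higher in ethanol-treated mice. Its values ranged from 11.44 to 12.11 (median 11.72) in ethanol-treated mice and from 11.15 to 11.75 (median 11.55) in controls, and the log2 difference was 0.25 (standard error 0.06). Here 9 of 20 ethanol-treated mice lay above the highest control. Syt13 was the member with a lower level that stood out most from its spread. It ranged from 8.75 to 9.16 (median 8.93) in ethanol-treated mice and from 8.96 to 9.33 (median 9.04) in controls, with 11 of 20 ethanol-treated mice below the lowest control and a log2 difference of -0.11 (standard error 0.04).

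The other 4 genes overlapped widely between the groups. Syt1 ranged from 12.67 to 13.27 in ethanol-treated mice and from 12.57 to 13.19 in controls, a log2 difference of 0.12 (standard error 0.06). Syt5, found on dense-core vesicles, ranged from 10.03 to 10.52 and from 10.21 to 10.83, a difference of -0.12 (standard error 0.06). Syt12 ranged from 7.95 to 8.43 and from 8.07 to 8.38, a difference of -0.09 (standard error 0.04). Syt16 ranged from 10.74 to 11.26 and from 10.88 to 11.23, a difference of -0.03 (standard error 0.04). Across all tested genes, the median size of the difference was 0.06.

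By limma with Benjamini-Hochberg adjustment over all tested probes, Syt4 and Syt11 passed an FDR of 1%, which 7.9% of tested genes did, and Syt13 joined them at an FDR of 10%, which 24.8% did. Nothing is read from these counts, because the same contrast chose the genes.

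The remaining relatives on the array numbered 11 genes with 19 probes. Of these only Syt9, another calcium sensor of fast release, and Sytl2, a synaptotagmin-like protein that binds Rab27, were tested. Syt9 ranged from 7.75 to 8.24 in ethanol-treated mice and from 7.67 to 8.15 in controls, a log2 difference of 0.07 (standard error 0.05, adjusted p = 0.338 by limma). Sytl2 had means of 11.23 ± 0.12 (SD, n = 20) and 11.16 ± 0.14 (SD, n = 12) and a log2 difference of 0.08 (standard error 0.05, adjusted p = 0.264 by limma). Neither passed the test.

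Because chip 3 was the only chip that held both groups, the values were next set out by chip. With the first Syt11 probe, the ethanol-treated mice of chip 3 read 9.31, 9.68, 9.91 and 9.62, and its controls 9.73, 9.32, 9.24 and 8.94. The groups overlapped through the lowest ethanol-treated mouse and the highest control. The log2 difference was 0.33 (standard error 0.13) on chip 3 and 0.83 (standard error 0.14) between chips 1 and 2 and chip 4. With the second probe, the ethanol-treated mice of chip 3 read 9.10, 9.13, 9.13 and 9.30, and its controls 9.27, 9.17, 8.96 and 9.02, so that the groups intermixed. The log2 difference of the second probe was 0.06 (standard error 0.08) on chip 3 and 0.45 (standard error 0.09) between the other chips.

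The change in the ethanol difference from one set of chips to the other (the difference on chip 3 minus that between chips 1 and 2 and chip 4) is likewise a description, because values by chip had a part in the choice of the genes. For the first Syt11 probe it was -0.51 (standard error 0.26, 95% interval from -1.04 to 0.02), and for the second probe -0.39 (standard error 0.16, 95% interval from -0.72 to -0.07). Both probes thus had a smaller ethanol difference on chip 3, and the interval of the first includes 0 while that of the second does not.

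Syt5 had the largest difference in size among the members on chip 3. There the ethanol-treated mice read 10.23, 10.34, 10.29 and 10.40 and the controls 10.52, 10.68, 10.73 and 10.83, with no overlap and a log2 difference of -0.37 (standard error 0.07). Between chips 1 and 2 and chip 4 the difference was 0.00 (standard error 0.06). The change between the sets of chips was -0.37 (standard error 0.10, 95% interval from -0.58 to -0.16). On chip 3, 1 member (Syt5) was called at an FDR of 10%, against 17.1% of tested genes, and nothing is read from this count.

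**Figure D2:**
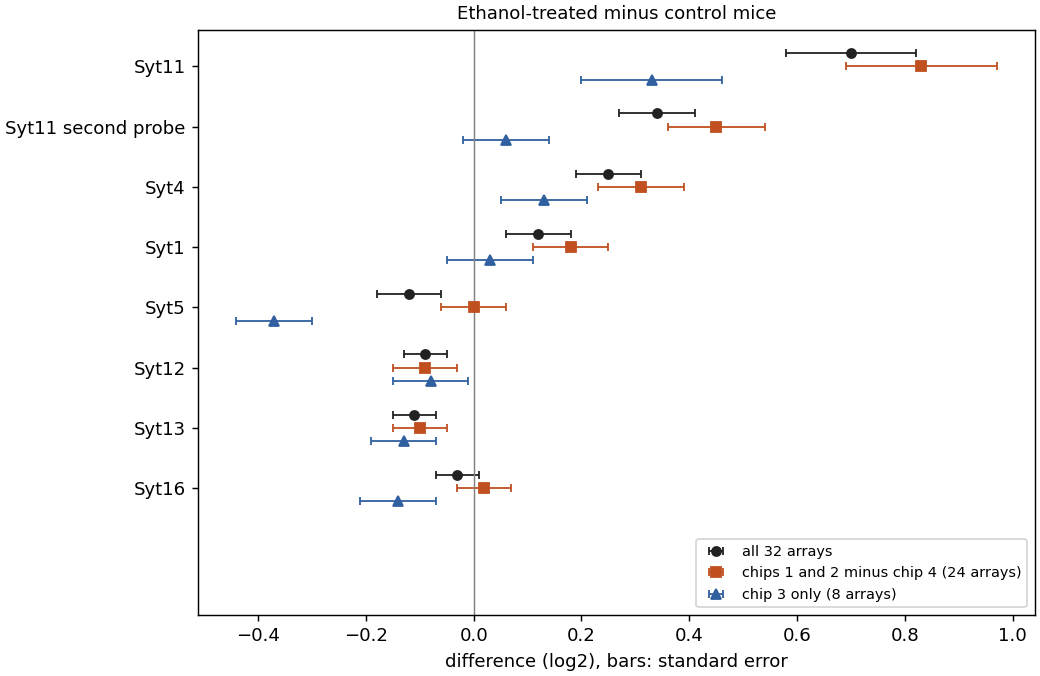
Log2 difference between ethanol-treated and control mice for the 8 tested probes, with standard errors, over all 32 arrays, between chips 1 and 2 and chip 4 (24 arrays), and on chip 3 (8 arrays). Both Syt11 probes lie furthest to the right over all arrays (0.70 and 0.34), and Syt5 is at -0.37 on chip 3 and 0.00 between the other chips.

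Syt4 kept the sign of its difference on both sets of chips. On chip 3, the ethanol-treated mice read 11.85, 11.98, 11.68 and 11.61 and the controls 11.65, 11.75, 11.60 and 11.59, with overlap and a log2 difference of 0.13 (standard error 0.08). Between the other chips it was 0.31 (standard error 0.08). Syt13 differed by -0.13 (standard error 0.06) on chip 3 and by -0.10 (standard error 0.05) between the others. Syt1 differed by 0.03 and 0.18, Syt12 by -0.08 and -0.09, and Syt16 by -0.14 and 0.02. For these 5 genes the change between the sets of chips ranged from -0.18 for Syt4 (standard error 0.14) to 0.01 for Syt12 (standard error 0.10).

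Differences among mice of equal treatment give the background for these values. Among controls at even positions, the 4 mice of chip 3 were above the 4 of chip 4 for Syt5, Syt4 and Syt1. The log2 difference was 0.32 for Syt5 (standard error 0.08, 95% interval from 0.15 to 0.49). It was 0.29 for Syt4 (standard error 0.08, 95% interval from 0.12 to 0.47) and 0.27 for Syt1 (standard error 0.07, 95% interval from 0.12 to 0.43). These values are likewise a description, because values by chip had a part in the choice of the genes. The 3 members passed an FDR of 10%, which 10.9% of tested genes did, and nothing is read from this count. Without control C54 or C64 only Syt5 passed, and with median scaling 0 members did. For Syt5, Syt4 and Syt1, the difference between these controls was larger in size than that between treatments over all arrays (-0.12, 0.25 and 0.12). For Syt4 it was below the 0.31 between chips 1 and 2 and chip 4. For both Syt11 probes the interval included 0, at -0.02 (95% interval from -0.33 to 0.29) and 0.10 (95% interval from -0.08 to 0.28). This comparison leaves out the controls of chip 4 at odd positions, which held the lowest first-probe Syt11 values of all mice (8.41, 8.69 and 8.75). Over all their controls, chips 3 and 4 had means of 9.31 and 9.07 with the first probe and 9.11 and 8.85 with the second.

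Among the 24 mice of chips 1, 2 and 4, even positions read higher than odd ones for Syt12 (log2 difference 0.13, standard error 0.05, adjusted p = 0.0543 by limma) and Syt5 (0.13, standard error 0.05, adjusted p = 0.0649 by limma), a comparison in which 20.5% of tested genes passed an FDR of 10%. On chip 3, where even positions held the controls, Syt5 was likewise higher at even positions. Syt11 differed by 0.14 (standard error 0.13, adjusted p = 0.520 by limma), whereas on chip 3 it was higher at odd positions, which held the ethanol-treated mice. The 0.14 averages over unlike chips. On chip 4, odd positions read 8.41, 8.75, 8.69 and 9.43 with the first probe, and even ones 9.59, 9.34, 9.49 and 8.88. On chip 1, odd positions ran from 9.54 to 10.27 and even ones from 9.57 to 10.37. On chip 2 these ranges were 9.23 to 10.38 and 9.61 to 10.23. Position was not tested chip by chip. Between the 16 ethanol-treated mice of chips 1 and 2, no member passed an FDR of 10%, which 2.03% of tested genes did. The 95% interval of each tested member probe included 0, which is a description for the same reason as above.

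**Figure D3:**
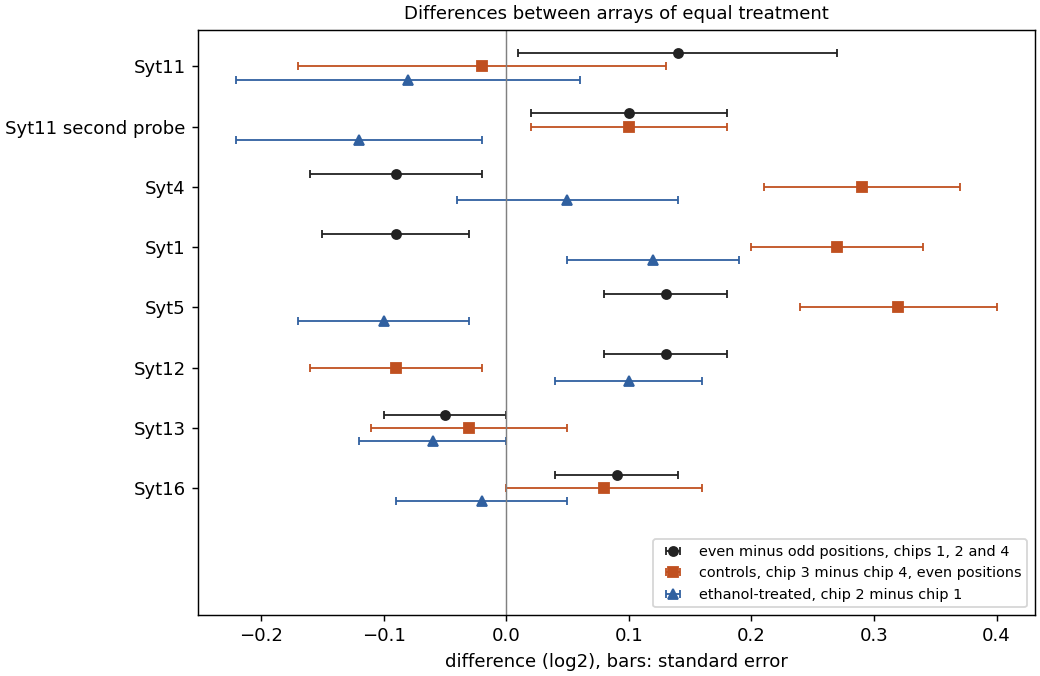
Log2 differences with standard errors for the 8 tested probes between arrays of equal treatment: even minus odd positions on chips 1, 2 and 4, controls of chip 3 minus controls of chip 4 at even positions, and ethanol-treated mice of chip 2 minus chip 1. Syt5, Syt4 and Syt1 lie at 0.32, 0.29 and 0.27 between the controls of the 2 chips, where Syt11 lies at -0.02.

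Syt11 varied more from mouse to mouse than nearly all genes. After each value was centred on the mean of its treatment and chip, the SD of the first Syt11 probe was 0.37 on the log2 scale, larger than that of 99.8% of tested genes, whose median was 0.12. The second probe had an SD of 0.21, Syt4 of 0.19 and Syt1 of 0.16, and the other members lay between 0.11 and 0.12. With arrays scaled to a common median instead of quantile-normalized, the SD of Syt11 was 0.40 and larger than that of 99.7% of tested genes, whose median was then 0.18. No relation with the depth of the arrays passed the test: Syt11 had r = -0.03 with the log2 median signal and r = -0.12 with the number of probes detected (rho = 0.02 and -0.18, p = 0.894 and 0.633, adjusted p = 0.982 and 0.890 by permutation over 16 relations). This variation was shared by the 2 Syt11 probes. Their centred values correlated with r = 0.84 and rho = 0.84 over 32 mice (p = 1e-05 for both by a permutation test, the smallest that 100000 resamples can give), with r = 0.80 in ethanol-treated mice, 0.91 in controls 0.79 without the 2 mice farthest from the median, and 0.89 with median scaling.

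Of the 21 pairs of tested member genes, 2 passed an adjusted p of 0.05 in the two-sided permutation test. The p-values of pairs are a description, because co-variation within groups was named with the choice of the genes. Syt1 and Syt4 rose and fell together from mouse to mouse (r = 0.72, rho = 0.70, p = 5e-05 for both and adjusted p = 0.00105 by permutation). The correlation was 0.63 without the 2 mice farthest from the median of Syt1, 0.68 in ethanol-treated mice and 0.83 in controls, and by chip it was 0.14 on chip 1, 0.82 on chip 2 and 0.83 on chip 4. Syt4 and Syt11 ran in opposite directions (r = -0.58, p = 0.00165, adjusted p = 0.0173; rho = -0.50, p = 0.00766, adjusted p = 0.0540 by permutation). Without the 2 mice farthest from the median of Syt4 the correlation was -0.52, and it was -0.26 on chip 1, -0.76 on chip 2 and -0.80 on chip 4. Both genes were higher in ethanol-treated mice, whereas among mice of 1 group those with more Syt11 signal had less Syt4 signal. This inverse relation depended on the scaling between arrays, since with median scaling it was -0.15 (adjusted p = 0.624 by permutation), with odd and even positions also centred apart it was -0.55 (adjusted p = 0.0560 by permutation), and with the second Syt11 probe it was -0.39 (adjusted p = 0.155 by permutation over 28 pairs).

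**Figure D4:**
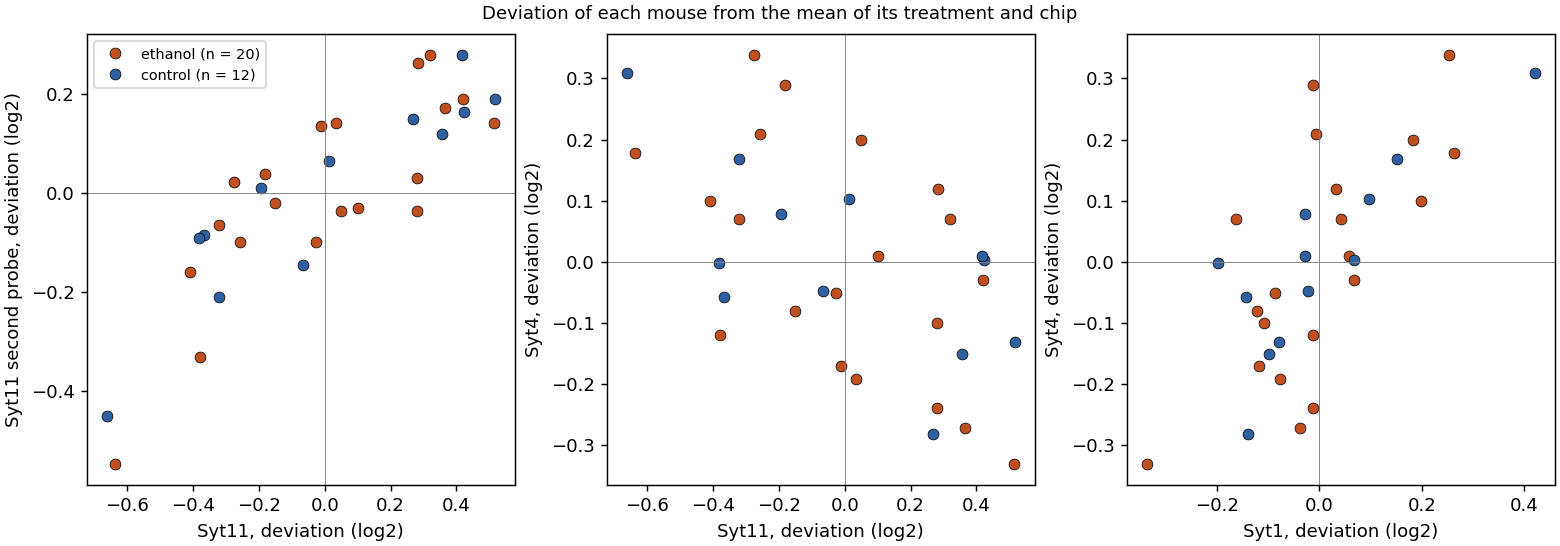
Deviation of each of the 32 mice from the mean of its treatment and chip, on the log2 scale, for the 2 Syt11 probes (left), Syt11 and Syt4 (middle) and Syt1 and Syt4 (right). Points are mice, coloured by treatment, and r is 0.84, -0.58 and 0.72.

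Another 3 pairs, all with Syt11, lay just outside the threshold at an adjusted p of 0.0535 by permutation. The correlation of Syt11 was -0.50 with Syt1 (rho = -0.33), -0.47 with Syt5 (rho = -0.48) and 0.47 with Syt12 (rho = 0.48). When odd and even positions were also centred apart, the correlation of Syt11 with Syt5 was -0.68 (adjusted p = 0.00535 by permutation). With median scaling, the r of Syt11 was 0.02 with Syt1 and 0.03 with Syt5, and 0.57 with Syt12 (adjusted p = 0.0186 by permutation). Median scaling raised r in every pair of members, for example from 0.04 to 0.64 for Syt13 and Syt16, and 11 pairs then passed. That the positive relation with Syt12 kept its size there thus does not set it apart. With quantile normalization no pair with Syt13 passed, and its largest r in size was -0.31, with Syt12.

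**Figure D5:**
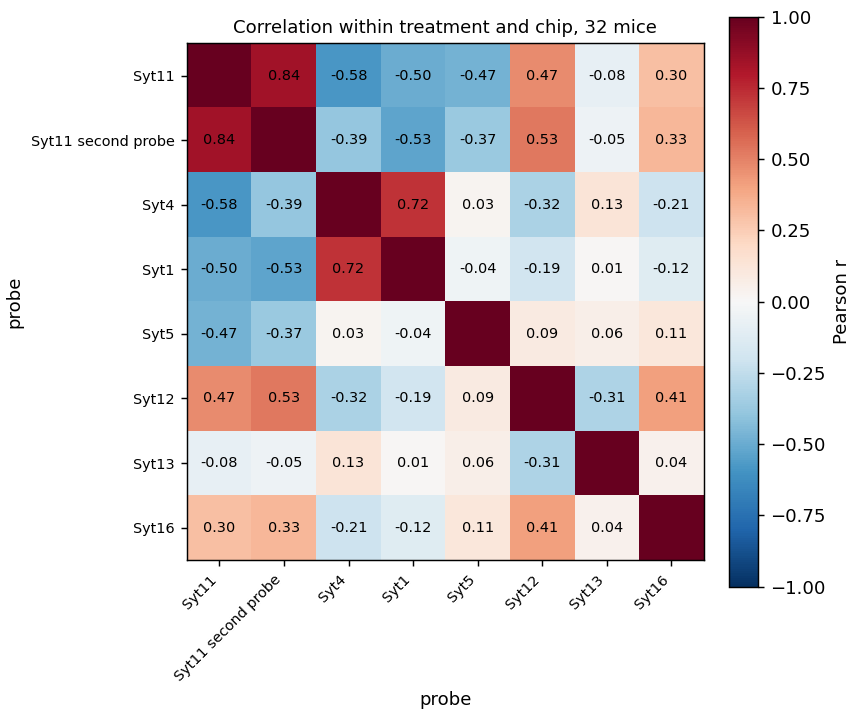
Pearson r between the 8 tested synaptotagmin probes over 32 mice, with values centred within treatment and chip. The 2 Syt11 probes correlate at 0.84, and both correlate negatively with Syt1, Syt4 and Syt5 and positively with Syt12; for the first probe, median scaling took these to 0.02, -0.15, 0.03 and 0.57.

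Cell type marker lists moved with these values. Scores of 8 marker lists were compared with the 7 member genes within treatment and chip, 56 relations in all, of which 8 passed an adjusted p of 0.05 by permutation. Syt4 rose with 7 tested astrocyte markers (r = 0.61, rho = 0.57, p = 0.00129, adjusted p = 0.0177 by permutation, r = 0.61 without the 2 farthest mice) and with 8 microglia markers (r = 0.53, rho = 0.49, p = 0.0046, adjusted p = 0.0322, r = 0.49 without the 2 farthest). Syt5 rose with 4 excitatory neuron markers (r = 0.62, rho = 0.60, p = 0.0004, adjusted p = 0.00747 by permutation, r = 0.56 without the 2 farthest), and Syt11 rose with 4 striatal markers (r = 0.47, rho = 0.49, p = 0.00158, adjusted p = 0.0177 by permutation, r = 0.44 without the 2 farthest). These 4 relations also passed with median scaling, with r of 0.80, 0.74, 0.82 and 0.58. However, median scaling raised r in every one of the 56 relations, for example from 0.05 to 0.75 for Syt1 and the interneuron list. Passing under it therefore does not set these 4 apart. The other 4 were negative and did not pass with median scaling. Syt11 ran against the astrocyte list (r = -0.67, rho = -0.63, p = 0.0001, adjusted p = 0.00392 by permutation, r = -0.57 without the 2 farthest mice), the excitatory neuron list (r = -0.59, rho = -0.62, p = 0.00204, adjusted p = 0.0190, r = -0.58) and the microglia list (r = -0.53, rho = -0.53, p = 0.00329, adjusted p = 0.0263, r = -0.48), and with median scaling these were 0.03, 0.00 and 0.05. Syt16 ran against 4 olfactory bulb markers (r = -0.67, rho = -0.55, p = 0.00014, adjusted p = 0.00392 by permutation, r = -0.61 without the 2 farthest), and with median scaling this was -0.03. Between treatments, 2 of 4 excitatory markers were lower and 2 of 7 astrocyte markers higher in ethanol-treated mice at an FDR of 10%, and the list medians were -0.17 and -0.01. Of all tested genes, 10.4% were higher and 14.4% lower at this threshold, and nothing is read from the marker counts given here. Of the other lists, 2 of 6 interneuron markers were higher, 1 of 8 oligodendrocyte and 1 of 8 microglia markers were lower, and of 5 endothelial markers 2 were higher and 1 lower. None of the 2 pan-neuronal, 4 olfactory bulb and 4 striatal markers tested passed, and 0 of 5 choroid plexus markers reached the detection filter. On chip 3 the excitatory list had a median of -0.38, the 8 oligodendrocyte markers a median of -0.34 and 4 olfactory bulb markers a median of 0.52. The part of these differences in the synaptotagmin values was not tested.

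The genes that tracked Syt11 most closely over the 32 mice, by r of centred values, were Apbb3 (0.88), Snrpd3 (0.86), Stmn4 (0.86), Hnrnpa2b1 (0.84) and Rnf220 (0.83). Snrpd3 is a core protein of the spliceosome, Hnrnpa2b1 an RNA-binding protein of splicing and transport, and Stmn4 a stathmin that acts on microtubules. The lowest r were those of Samd4b (-0.86), Pigt (-0.84) and Fchsd2 (-0.84). They are the extremes of 7926 genes and carry no test. Against the second Syt11 probe, which was read in the same mice and correlates with the first, the 5 positive genes had r from 0.67 to 0.78 and the 3 negative ones from -0.84 to -0.69. With median scaling the positive genes stayed between 0.86 and 0.90, whereas Samd4b, Pigt and Fchsd2 had r of -0.45, -0.64 and -0.23. In all, 40 genes had an r above 0.7 with Syt11 and 46 an r below -0.7, against 88 and 6 for Syt4, 50 and 0 for Syt1, 15 and 1 for Syt5 and 0 and 0 for Syt13. The closest gene to Syt1 was the activity-regulated transcription factor Mef2c (0.85), to Syt4 Cit (0.86), to Syt5 the neuropeptide precursor Vgf (0.79), to Syt12 Nrbf2 (0.72), to Syt13 Mrpl36 (0.63) and to Syt16 Ard1 (0.72).

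The other proteins of vesicle fusion, with which synaptotagmins act, were taken from a list of 44 genes on the array, of which 39 were tested. At an FDR of 10%, 11 were higher and 3 lower in ethanol-treated mice by limma (35.9% of the list passed, against 24.8% of all tested genes, of which 10.4% were higher and 14.4% lower), and the list's median difference was 0.01, against -0.007 for all genes. These counts rest on the comparison between chips: with chip taken as a block, fixed or random, 3 genes of the list passed, with position added to the fixed block 0, and with median scaling 4. The genes of priming and the active zone, which make vesicles ready for release, had 4 of 7 higher and 0 lower, with Rims1, a scaffold of the active zone, at 0.22 (standard error 0.06, adjusted p = 0.00934 by limma). On chip 3 alone these 4 genes differed by 0.00 (Rims1), -0.10 (Pclo), -0.11 (Unc13c) and 0.18 (Unc13b), so that 1 of them kept its rise in value there. Of the 4 genes that take spent SNARE complexes apart, 2 were higher, among them Napb at 0.22 (standard error 0.08, adjusted p = 0.0381 by limma). Of the 13 tested SNARE genes, 1 was higher and 1, Snap29, was lower (-0.13, standard error 0.05, adjusted p = 0.0686 by limma).

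The largest rise of the list was that of Syn2, a synapsin that tethers vesicles in their reserve pool, with means of 12.38 ± 0.23 (SD, n = 20) and 12.13 ± 0.26 (SD, n = 12) and a log2 difference of 0.25 (standard error 0.08, adjusted p = 0.0249 by limma). Its relative Syn1 was lower, by -0.16 (standard error 0.05, adjusted p = 0.0206 by limma). The largest fall was that of Rph3a, rabphilin, a vesicle protein with C2 domains like those of the synaptotagmins, with means of 10.04 ± 0.19 (SD, n = 20) and 10.35 ± 0.17 (SD, n = 12) and a log2 difference of -0.30 (standard error 0.06, adjusted p = 0.000917 by limma). Position on the chip moved with some of these genes: even minus odd positions gave 0.28 for Rph3a, -0.30 for Syn2 and -0.28 for Napb, each past an FDR of 10%. On chip 3 alone, ethanol minus control was -0.46 for Rph3a, 0.19 for Syn2 and 0.12 for Napb. The ethanol-treated mice of chip 3 held its odd positions. A position difference of these signs would thus have the same direction there as the ethanol difference, and the 2 cannot be told apart.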

How the data were processed

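The table that the authors deposited holds bead summaries without normalization. Its intensities, as deposited, average the beads that carry a probe on 1 array, on a linear scale. Also deposited per probe and array are a detection p-value and, as other values, how many beads were read and the standard error over them. The software and background step behind them are not given in the sources used here. Every column was matched to its mouse through the labels.

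The signals were variance-stabilized after the method of lumi, which the Methods name, and quantile-normalized in R 4.3.3. The 10187 probes that reached a detection p-value under 0.01 on 24 or more of the 32 arrays were tested with limma 3.58.1, without covariates, and the Benjamini-Hochberg adjustment ran over all of them. Where a gene had several tested probes, the one of highest mean stands for it. The median SD within groups was 0.126 on the log2 scale, and the number of arrays limits the precision. Correlations used Python 3.11.15, numpy 2.4.6, scipy 1.17.1 and pandas 2.3.3, with 100000 permutations within treatment and chip, and figures used matplotlib 3.10.9. The steps were tested on simulated data.

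Members, lists and tests were chosen with earlier results of these data known. The named genes are the members, their relatives on the array, the 3 vesicle fusion genes with the largest rise and the 3 with the largest fall at an FDR of 10%, the 5 genes with the highest and the 3 with the lowest r with Syt11, and 1 gene for each other member. Each mouse was taken as 1 replicate. Marker lists covered excitatory neurons, interneurons, all neurons, astrocytes, oligodendrocytes, microglia, endothelium, olfactory bulb, striatum and choroid plexus.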

Additional observations from a re-analysis of the deposited data

Results flagged for a closer look

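In 40 groups of mice (8 probes in 5 groups of chip and treatment), 3 held a value far from the rest, by Dixon's 95% value, which chance alone passes in about 1 in 20 groups. The second Syt11 probe read 8.69 in ethanol-treated mouse A29 of chip 2, where the next mouse read 9.14. Syt13 read 9.33 in control mouse C64 of chip 4, where the next read 9.07. Syt16 read 10.88 in ethanol-treated mouse A50 of chip 3, and the gap to the next mouse was 0.835 of the range of its 4 values.

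The ethanol difference of Syt5 on chip 3 departed from that between the other chips by -0.37 on the log2 scale (standard error 0.10). Under the 6 other settings tried for this contrast it ranged from -0.51 to -0.37. It is given as a description, since values by chip had a part in the choice of the genes.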

How the results depend on the processing

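No paired analysis was possible because the groups share no mouse numbers. Chip as a fixed block, under which chip 3 alone informs the ethanol difference, gave 18 genes at an FDR of 1% in place of 626 and 520 at 10% in place of 1962, 0 members in place of 2 and 1 (Syt5) in place of 3, and 3 vesicle fusion genes in place of 14. With odd or even position added the counts were 2, 6, 0, 0 and 0. Chip as a random block gave 57 and 769 genes, 0 members at 1% and 3 at 10% (Syt4, Syt5 and Syt11), and 3 vesicle fusion genes. With chip as a fixed block Syt11 differed by 0.33, its second probe by 0.06 and Syt5 by -0.37. With position added, Syt11 differed by 0.47 (standard error 0.26), its second probe by 0.16 (standard error 0.15) and Syt5 by -0.25 (standard error 0.09). In that model Syt4 differed by 0.04, Syt1 by -0.06 and Syt12 by 0.05, so that Syt1 and Syt12 changed sign there.

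Median scaling gave 68 and 754 genes, 1 member at 1% (Syt11), 4 vesicle fusion genes, 0 members between even and odd positions, 1 between chips 2 and 1 (Syt1), 0 between the controls of chips 3 and 4, and 11 pairs of members past the threshold in place of 2. It also took the r of Syt11 with the astrocyte, excitatory neuron and microglia lists to 0.03, 0.00 and 0.05, all positive in sign, and that of Syt16 with the olfactory bulb list to -0.03. The share of higher genes among those called moved from 38.3% to 82.4%. At an FDR of 1%, 1 member (Syt11) also remained with normexp, with all probes, without control mouse C66 and with position as a covariate. Normexp left 1 member between the controls of chips 3 and 4, and all probes left 1 between even and odd positions. Leaving out 1 mouse gave 1 to 2 members on chip 3 (Syt11 beside Syt5 without A46 or C52) and 1 to 3 between the controls of chips 3 and 4. For the comparisons by chip and position under these other settings, the share of all tested genes called is not given here. Nothing is read from their member counts. Centring within treatment only left 1 pair of members, and counting the second Syt11 probe as its own profile, added after seeing the data, gave 8 of 28 pairs. The causes were not tested.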
